A study of Mus musculus with 12 samples.

Results

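The cornified envelope genes were taken as the mouse protein-coding genes whose symbol begins with Lce or Sprr, together with Flg2, Hrnr, Lor, Ivl, Kprp, Crnn, Rptn, Tchh, Tchhl1, Crct1, Cysrt1, Tgm1 and Tgm3. Matching of the deposited Ensembl identifiers to GENCODE M21 gave 48 members among 39179 gene identifiers. They comprised 13 Lce1 genes, 6 Lce3 genes, Lce6a, 2 Sprr1 genes, 11 Sprr2 genes, Sprr3 and Sprr4, 6 genes of the S100-fused family (Flg2, Hrnr, Crnn, Rptn, Tchh and Tchhl1), 5 single genes (Lor, Ivl, Kprp, Crct1 and Cysrt1) and 2 transglutaminases. Flg and Lce1d also meet the rule by name, and their identifiers were not analysed here. Sprr2j-ps carries a pseudogene symbol, but the annotation lists it as protein coding, so it was kept.

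The cornified envelope is the protein shell that replaces the plasma membrane of a keratinocyte when it dies at the surface of the epidermis. Loricrin (Lor), involucrin (Ivl), the small proline-rich proteins (Sprr) and the late cornified envelope proteins (Lce) are its precursors, and transglutaminases cross-link them. The S100-fused proteins, filaggrin and its relatives, fill the dying cell and join the envelope. In the mouse this program is switched on late in gestation, when the skin barrier forms, and most of its precursor genes lie side by side in the epidermal differentiation complex.

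Transcripts were measured by RNA sequencing in the calvaria, or skull roof, of C57BL/6 embryos at embryonic day 17.5. There were 12 libraries in 4 groups of 3: Runx2+/- embryos with MS-275, WT embryos with MS-275, Runx2+/- embryos with vehicle and WT embryos with vehicle. MS-275 (entinostat) inhibits class I histone deacetylases, and Runx2 encodes the transcription factor that osteoblasts need. Pregnant females received 2 intraperitoneal injections of 10 mg/kg, on days 14.5 and 16.5 post coitum, after parents had been mated at 8 weeks of age. The labels do not say which part of Runx2 is deleted, what the vehicle was, or whether the replicates of a group were separate embryos or litters, so p-values measure only the spread between these libraries, which may be technical. The labels name the tissue as calvaria and do not mention skin.

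Of the members, 45 lay within 1.39 Mb of chromosome 3 (GRCm38, positions 92080271 to 93471980), Cysrt1 and Tgm3 lay on chromosome 2 and Tgm1 lay on chromosome 14. Along chromosome 3 the order was Lor, the Sprr genes, Ivl, Lce6a, the Lce1 genes with Kprp, the Lce3 genes, Crct1 and Lce1m, and then the S100-fused genes. The windows of RefSeq (GRCm38.p6) that run from 250 bases before to 50 bases after a gene's start matched 44 of the 48 members. The TATA box TATAAA, on the gene's own strand and starting 20 to 40 bases before the start, was in 35.6% of the members' 45 windows, against 1.99% of the 32851 windows of all genes. The AP-1 motif TGANTCA, on either strand, was in 35.6% of the members' windows and in 7.81% of all windows. GGGCGG, the Sp1 motif, was in 4.44% of the members' windows and 35.7% of all windows. CACCC, bound by Klf factors, was in 55.6% of the members' windows and 57.5% of all windows, both motifs on either strand. None of these motifs contains another.

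The AP-1 letters were unevenly spread among the families, at 7 of 10 Sprr2 windows and 4 of 6 S100-fused windows, against 0 of 12 Lce1 windows and 0 of 6 Lce3 windows. The octamer ATTTGCAT, searched on either strand after the sequences had been seen, was in 7 of the 10 Sprr2 windows, in no other member's window and in 1.74% of all windows. A motif match is a description of these letters only. The 250 bases before the start were read for the member with the most counts (Hrnr), for Lor, and for 4 members whose levels differed widely between vehicle libraries (Sprr1a, Sprr2h, Rptn and Crnn). Capitals mark the TATA box and AP-1 letters. The TATA box starts 31 bases before the start in Hrnr and Rptn, 29 in Sprr2h and Crnn and 27 in Lor, while in Sprr1a it lies outside the range of 20 to 40 bases.
Hrnr, chr3:93319499-93319748, + strand: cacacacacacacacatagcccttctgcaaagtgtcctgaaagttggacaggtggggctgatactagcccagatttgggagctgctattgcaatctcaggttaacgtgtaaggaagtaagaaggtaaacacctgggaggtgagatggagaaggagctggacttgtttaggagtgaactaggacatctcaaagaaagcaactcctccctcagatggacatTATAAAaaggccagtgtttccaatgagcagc
Lor, chr3:92083143-92083392, - strand: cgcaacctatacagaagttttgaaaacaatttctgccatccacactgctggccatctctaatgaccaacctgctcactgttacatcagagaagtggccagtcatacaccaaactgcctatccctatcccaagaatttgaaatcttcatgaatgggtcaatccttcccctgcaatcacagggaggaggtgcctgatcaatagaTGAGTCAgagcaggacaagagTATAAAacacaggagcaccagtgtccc
Sprr1a, chr3:92485882-92486131, - strand: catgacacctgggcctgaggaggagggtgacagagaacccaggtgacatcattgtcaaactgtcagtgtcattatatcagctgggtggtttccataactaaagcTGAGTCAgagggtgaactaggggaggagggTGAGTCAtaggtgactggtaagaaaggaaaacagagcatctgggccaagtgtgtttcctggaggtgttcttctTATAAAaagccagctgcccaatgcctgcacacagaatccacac
Sprr2h, chr3:92385435-92385684, + strand: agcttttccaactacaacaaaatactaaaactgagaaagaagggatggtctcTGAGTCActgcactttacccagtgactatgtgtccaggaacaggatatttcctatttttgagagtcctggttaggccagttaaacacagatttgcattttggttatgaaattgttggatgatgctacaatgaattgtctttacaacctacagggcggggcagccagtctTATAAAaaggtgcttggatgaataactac
Rptn, chr3:93393449-93393698, + strand: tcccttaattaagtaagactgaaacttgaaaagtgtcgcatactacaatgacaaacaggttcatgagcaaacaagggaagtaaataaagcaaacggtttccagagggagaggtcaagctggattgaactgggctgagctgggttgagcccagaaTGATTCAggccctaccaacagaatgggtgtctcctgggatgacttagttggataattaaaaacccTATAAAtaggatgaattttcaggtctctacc
Crnn, chr3:93144539-93144788, + strand: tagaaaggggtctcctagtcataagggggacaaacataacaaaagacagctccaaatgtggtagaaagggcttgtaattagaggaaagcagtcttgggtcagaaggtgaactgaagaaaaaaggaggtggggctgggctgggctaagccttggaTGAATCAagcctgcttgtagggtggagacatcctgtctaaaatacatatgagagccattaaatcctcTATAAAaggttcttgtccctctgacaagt

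Library totals ran between 13307456 and 19399760 counts in genes. Runx2 itself was at 84.1, 93.5 and 34.1 CPM (read counts as a rate per library, with TMM factors) in Runx2+/- MS-275 libraries, 111, 131 and 88.2 CPM in WT MS-275 libraries, 65.3, 32.8 and 58.1 CPM in Runx2+/- vehicle libraries and 45.5, 42.4 and 46.1 CPM in WT vehicle libraries. The Runx2+/- vehicle libraries thus overlapped the WT vehicle libraries and were not lower as a group, and since the deleted part is not given, this level does not check the genotype labels. Runx2+/- MS-275 replicate 3 stood apart from its group. On the first principal component of log2 CPM, which held 72.5% of the variance, it lay at -106, beside 4 vehicle libraries (-122 to -92.7), while the 5 other MS-275 libraries lay between 83.9 and 140.03. WT vehicle replicate 3 (5.51) and Runx2+/- vehicle replicate 3 (-14.5) lay between those ends. The library labelled Runx2+/- MS-275 replicate 3 is kept under its label below, and results are given with and without it.

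Counts in the members followed the same split. They were 47, 54 and 22176 in Runx2+/- MS-275 libraries, 95, 66 and 79 in WT MS-275 libraries, 18877, 20142 and 22581 in Runx2+/- vehicle libraries and 38966, 8281 and 27828 in WT vehicle libraries. As summed CPM this was 4.37, 4.31 and 965 in Runx2+/- MS-275 libraries, 6.18, 5.40 and 6.81 in WT MS-275 libraries, 873, 867 and 1150.3 in Runx2+/- vehicle libraries and 1554, 478 and 1376 in WT vehicle libraries. The members were thus nearly silent in 5 of the 6 MS-275 libraries, while the remaining one was at the level of vehicle. In that library 45 of the 48 members lay inside the range of the 6 vehicle libraries, 1 lay below it and 2 lay above it. In bulk tissue, fewer cells of a type and less RNA per cell cannot be told apart.

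**Figure D1:**
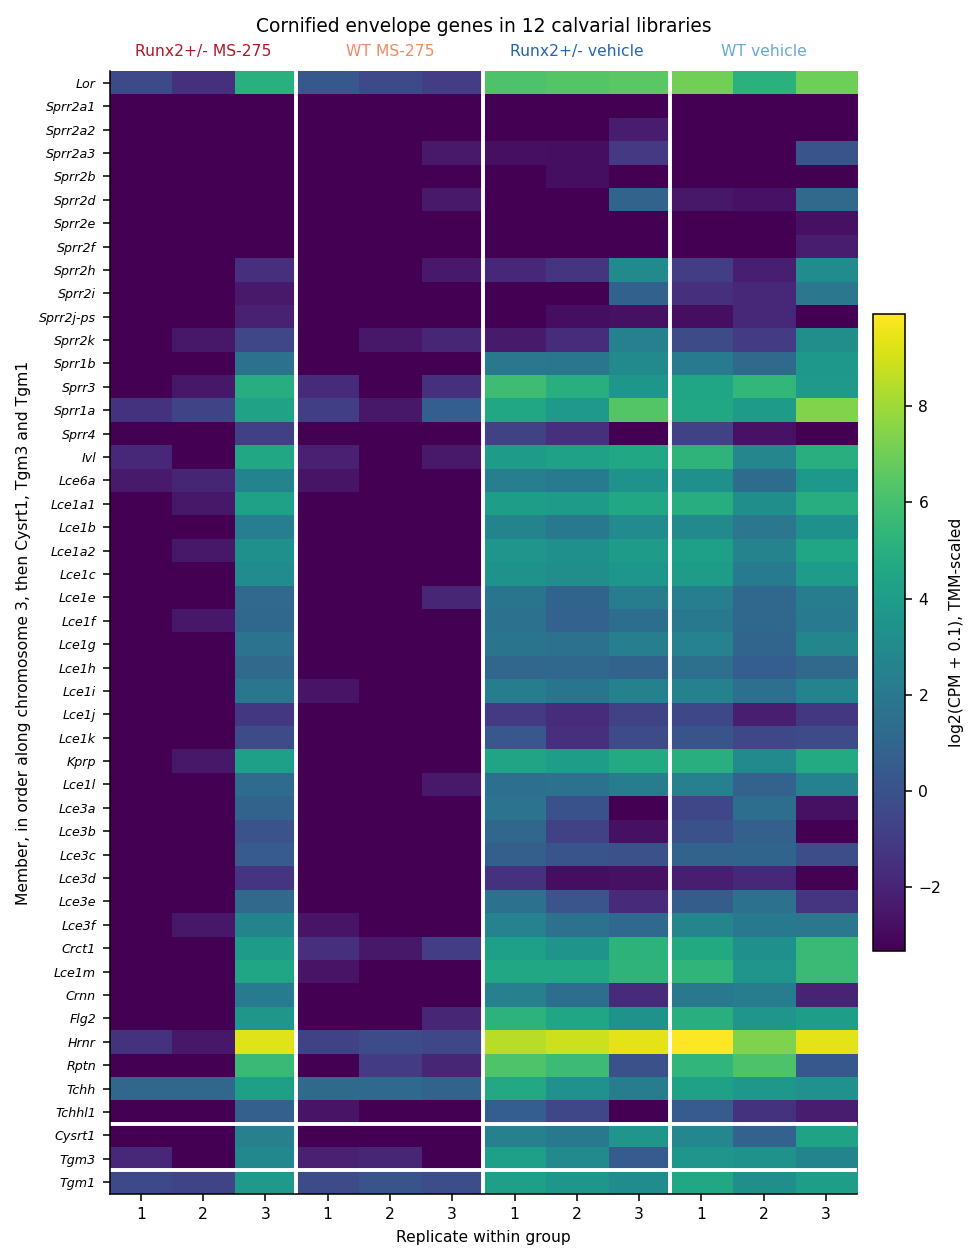
Level of the 48 members (rows, in order along chromosome 3 and then chromosomes 2 and 14) in the 12 libraries (columns, by group and replicate), as log2(CPM + 0.1). Members were near 0 in the 3 WT MS-275 libraries and in 2 Runx2+/- MS-275 libraries, and Runx2+/- MS-275 replicate 3 resembles the vehicle columns.

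In WT embryos given MS-275, transcripts of nearly all members were near or at 0. In WT MS-275 libraries 26 of the 48 members had no count at all, and 37 of 48 were lower in every WT MS-275 library than in every WT vehicle library. Across all genes tested, 27.5% were lower and 27.3% higher without overlap in this comparison. Members at or near 0 in MS-275 libraries could pass the filter on low counts only through their level elsewhere, so the 36 members that passed had to differ, and counts and medians over them are a description. Of these, 27 were lower by edgeR's quasi-likelihood test with Benjamini-Hochberg adjustment (adjusted p 0.0434 to 0.0478) and none was higher, where 9.33% of all 17967 genes tested were lower and 9.67% higher. Their median log2 fold change was -7.70, or -5.85 when the 16 that had no WT MS-275 count were put at the bound that 3 counts in each library gives, and the median of all genes was -0.13. The adjusted p-values lay close under the threshold of 0.05, and leaving out 1 library decided the calls. No gene of any kind was called, members included, when any 1 of WT MS-275 replicates 1, 2 and 3, Runx2+/- MS-275 replicate 2, Runx2+/- vehicle replicates 1 and 2, or WT vehicle replicates 1 and 2 was left out. With no filter on low counts (47 members tested), or with the replicate number as a block, 0 members and 0 genes in all were called. The count of lower members was 13 of 36 without Runx2+/- vehicle replicate 3 (5.82% of all genes lower), 33 of 40 tested without Runx2+/- MS-275 replicate 3 (24.4% of all genes lower), 29 of 29 in a fit of the WT groups alone (23.4%), and 35 of 35 with all 3 libraries that stood apart left out (31.8% of all genes lower).

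**Figure D2:**
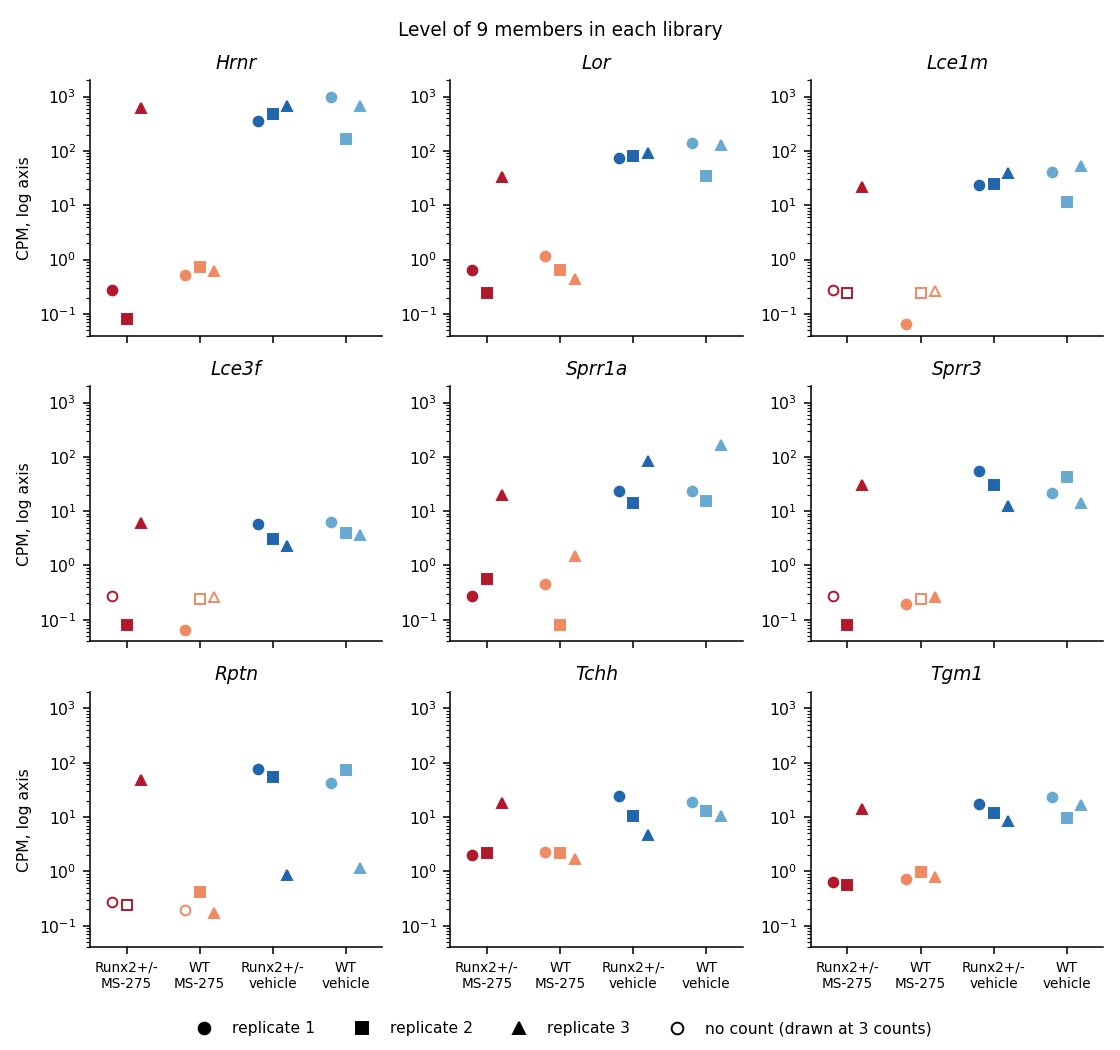
CPM (log axis) of 9 members in each library, by group; open symbols are libraries with no count, drawn at the level of 3 counts. In 5 MS-275 libraries Hrnr is under 1 CPM, against 165 to 964 CPM in the vehicle libraries and 609 CPM in Runx2+/- MS-275 replicate 3; Tchh keeps 1.73 to 2.28 CPM in those 5 libraries.

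Among the scaffold proteins, loricrin, the main protein of the envelope, was at 0.650, 0.239 and 33.6 CPM in Runx2+/- MS-275 libraries, 1.17, 0.655 and 0.431 CPM in WT MS-275 libraries, 75.1, 81.3 and 91.1 CPM in Runx2+/- vehicle libraries and 137, 35.2 and 128 CPM in WT vehicle libraries. No MS-275 library reached the lowest vehicle library, and Runx2+/- MS-275 replicate 3 lay just under it. Lor fell by 7.01 ± 1.59 (SE) on the log2 scale, with an adjusted p of 0.0434 by edgeR in WT. Involucrin, an early precursor on which the envelope is assembled, had 3 counts in all in WT MS-275 libraries and 1739 in WT vehicle libraries, a 362-fold lower level (95% exact Poisson interval 124 to 1759, counting error only). Kprp, a keratinocyte proline-rich protein, and Cysrt1, a cysteine-rich protein encoded outside the complex, had no count in WT MS-275. Taking 3 counts in each library as the most that a count of 0 allows, they were at least 94.7-fold and at least 40.5-fold lower.

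Crct1, a small cysteine-rich gene of the complex, was at 0, 0 and 15.7 CPM in Runx2+/- MS-275 libraries, 0.260, 0.0819 and 0.431 CPM in WT MS-275 libraries, 17.5, 11.5 and 37.0 CPM in Runx2+/- vehicle libraries and 26.3, 9.98 and 49.1 CPM in WT vehicle libraries. It fell by 6.76 ± 1.91 (SE) on the log2 scale in WT embryos, with an adjusted p of 0.044 by edgeR, and its log2 fold change was -6.11 without WT vehicle replicate 3.

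The late cornified envelope genes, which encode small cysteine- and glycine-rich precursors, were close to 0 throughout in the 5 MS-275 libraries other than Runx2+/- MS-275 replicate 3. Lce1m, the highest of them in CPM, was at 0, 0 and 22.0 CPM in Runx2+/- MS-275 libraries, 0.0651, 0 and 0 CPM in WT MS-275 libraries, 23.5, 24.5 and 39.4 CPM in Runx2+/- vehicle libraries and 40.7, 11.6 and 52.3 CPM in WT vehicle libraries. That was 1 count in WT MS-275 against 2280 in WT vehicle, a 1426-fold lower level (interval 256 to 56334). Lce1a1 was at 0, 0.0798 and 18.7 CPM in Runx2+/- MS-275 libraries, 0, 0 and 0 CPM in WT MS-275 libraries, 16.5, 15.8 and 24.0 CPM in Runx2+/- vehicle libraries and 30.0, 9.51 and 30.7 CPM in WT vehicle libraries, at least 100.3-fold lower in WT MS-275 than in WT vehicle. Each of the 2 genes had 1 count over the 5 MS-275 libraries other than Runx2+/- MS-275 replicate 3. The 13 Lce1 genes together held 5 counts in WT MS-275 libraries and 7635 in WT vehicle libraries, 9 of them had none in WT MS-275, and all 12 tested Lce1 genes were called lower.

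The Lce3 genes are known for induction in wounded and inflamed skin, and Lce6a stands alone in its group. Lce3f was at 0, 0.0798 and 6.18 CPM in Runx2+/- MS-275 libraries, 0.0651, 0 and 0 CPM in WT MS-275 libraries, 5.78, 3.10 and 2.24 CPM in Runx2+/- vehicle libraries and 6.38, 4.04 and 3.71 CPM in WT vehicle libraries, and it was called lower in WT (adjusted p 0.0434 by edgeR). Lce6a was at 0.0929, 0.160 and 6.18 CPM in Runx2+/- MS-275 libraries, 0.0651, 0 and 0 CPM in WT MS-275 libraries, 4.99, 4.26 and 11.2 CPM in Runx2+/- vehicle libraries and 9.93, 2.48 and 13.003 CPM in WT vehicle libraries, and it was also called lower (adjusted p 0.0434 by edgeR). Of the 5 tested Lce3 genes, Lce3c and Lce3f passed the test. Lce3e was at 0, 0 and 2.26 CPM in Runx2+/- MS-275 libraries, 0, 0 and 0 CPM in WT MS-275 libraries, 3.01, 1.03 and 0.204 CPM in Runx2+/- vehicle libraries and 1.40, 2.94 and 0.297 CPM in WT vehicle libraries, with an adjusted p of 0.0704 by edgeR in WT. Lce3a and Lce3b also had no count in WT MS-275. In WT vehicle Lce3a was at 0.598, 2.65 and 0.0494 CPM and Lce3b at 0.877, 1.56 and 0 CPM, and their adjusted p-values by edgeR were 0.122 and 0.109. In all 3 genes the vehicle libraries numbered 3 were the lowest. Lce3d and Lce1j had at most 0.638 CPM in any library and did not pass the filter.

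The small proline-rich genes encode cross-bridging precursors. Sprr1a was at 0.279, 0.558 and 19.5 CPM in Runx2+/- MS-275 libraries, 0.456, 0.0819 and 1.47 CPM in WT MS-275 libraries, 23.8, 14.3 and 82.9 CPM in Runx2+/- vehicle libraries and 23.8, 15.6 and 167 CPM in WT vehicle libraries. Both vehicle libraries numbered 3 were highest in their group, and all WT MS-275 libraries lay below all WT vehicle libraries. Sprr1a fell by 6.70 ± 1.81 (SE) on the log2 scale in WT (adjusted p 0.0434 by edgeR), and Sprr1b was at least 27.8-fold lower. The log2 fold change of Sprr1a was -4.89 without WT vehicle replicate 3 and -7.89 without WT MS-275 replicate 3. Sprr1b was at 0, 0 and 3.09 CPM in Runx2+/- MS-275 libraries, 0, 0 and 0 CPM in WT MS-275 libraries, 3.88, 3.57 and 7.69 CPM in Runx2+/- vehicle libraries and 4.15, 2.25 and 13.1 CPM in WT vehicle libraries.

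Sprr3, which is also abundant in oral and esophageal epithelium, was at 0, 0.0798 and 30.0 CPM in Runx2+/- MS-275 libraries, 0.195, 0 and 0.259 CPM in WT MS-275 libraries, 55.3, 30.9 and 12.6 CPM in Runx2+/- vehicle libraries and 21.5, 43.0 and 14.1 CPM in WT vehicle libraries. It fell by 7.36 ± 2.11 (SE) on the log2 scale in WT (adjusted p 0.0447 by edgeR). Sprr4 had between 0 and 0.518 CPM in every library, it had no count in WT MS-275 and 13, 1 and 0 counts in WT vehicle, and its adjusted p was 0.2 by edgeR. The Sprr2 genes were scarce. Of the 11, Sprr2a1 had no count in any library, and Sprr2k alone passed the filter. Sprr2k was at 0, 0.0798 and 0.609 CPM in Runx2+/- MS-275 libraries, 0, 0.0819 and 0.173 CPM in WT MS-275 libraries, 0.0925, 0.215 and 5.25 CPM in Runx2+/- vehicle libraries and 0.758, 0.404 and 9.15 CPM in WT vehicle libraries. The WT groups did not overlap, and its adjusted p by edgeR was 0.0706.

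The S100-fused genes held most of the members' counts. Hornerin (Hrnr), a filaggrin-like protein, was at 0.279, 0.0798 and 609 CPM in Runx2+/- MS-275 libraries, 0.521, 0.737 and 0.604 CPM in WT MS-275 libraries, 362, 485 and 672 CPM in Runx2+/- vehicle libraries and 964, 165 and 672 CPM in WT vehicle libraries. It fell by 9.91 ± 2.70 (SE) on the log2 scale in WT, with an adjusted p of 0.0434 by edgeR. Hrnr took 34.6% to 62.0% of member counts in the 6 vehicle libraries and 63.1% in Runx2+/- MS-275 replicate 3 (exact Clopper-Pearson 95% interval 62.5% to 63.8%), but 1.85% to 13.6% in the 5 other MS-275 libraries. Flg2, filaggrin 2, had 2 counts in WT MS-275 against 1359 in WT vehicle, a 425-fold lower level (interval 117 to 3512), and was called lower.

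The remaining 4 S100-fused genes were lower in every WT MS-275 library than in every WT vehicle library but did not pass the test. Repetin (Rptn) was at 0, 0 and 47.7 CPM in Runx2+/- MS-275 libraries, 0, 0.409 and 0.173 CPM in WT MS-275 libraries, 78.3, 53.7 and 0.866 CPM in Runx2+/- vehicle libraries and 42.3, 75.1 and 1.14 CPM in WT vehicle libraries, with an adjusted p of 0.0662 by edgeR in WT. Cornulin (Crnn), a marker of squamous epithelium, was at 0, 0 and 4.44 CPM in Runx2+/- MS-275 libraries, 0, 0 and 0 CPM in WT MS-275 libraries, 5.27, 2.67 and 0.204 CPM in Runx2+/- vehicle libraries and 3.83, 4.79 and 0.148 CPM in WT vehicle libraries, with an adjusted p of 0.0757 by edgeR in WT. In both genes the vehicle libraries numbered 3 stood close to the MS-275 libraries. Tchhl1, trichohyalin-like 1, had 1 count in WT MS-275 against 41 in WT vehicle (adjusted p 0.153).

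Trichohyalin (Tchh), the protein of the hair follicle's inner root sheath, kept the most counts of any member in the 5 other MS-275 libraries. It was at 2.04, 2.15 and 18.5 CPM in Runx2+/- MS-275 libraries, 2.28, 2.21 and 1.73 CPM in WT MS-275 libraries, 24.9, 10.3 and 4.58 CPM in Runx2+/- vehicle libraries and 19.0, 13.1 and 10.3 CPM in WT vehicle libraries, a 6.82-fold lower mean in WT MS-275 than in WT vehicle (adjusted p 0.0506 by edgeR). Of the 341 counts that the members held in the 5 other MS-275 libraries, Tchh took 38.4% (exact interval 33.2% to 43.8%), Tgm1 13.5%, Lor 12.0% and Sprr1a 10.3%. The 12 hair follicle markers summed to 37.6, 53.3 and 122 CPM in Runx2+/- MS-275 libraries, 26.9, 21.2 and 25.8 CPM in WT MS-275 libraries, 111, 91.9 and 80.7 CPM in Runx2+/- vehicle libraries and 108, 102 and 54.1 CPM in WT vehicle libraries. Krt27, Krt73, Krt31, Krt33a, Krt35 and Shh were at 0 in WT MS-275, and the part of hair follicle cells in the remaining Tchh level was not tested.

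The cross-linking enzymes were both called lower. Tgm1, the membrane-bound transglutaminase of keratinocytes, was at 0.650, 0.558 and 13.8 CPM in Runx2+/- MS-275 libraries, 0.716, 0.982 and 0.776 CPM in WT MS-275 libraries, 17.5, 12.1 and 8.56 CPM in Runx2+/- vehicle libraries and 23.7, 9.51 and 16.5 CPM in WT vehicle libraries. Tgm1 fell by 4.32 ± 1.11 (SE) on the log2 scale in WT (adjusted p 0.0434 by edgeR). Tgm3, the transglutaminase of late keratinocytes and hair, was at 0.186, 0 and 7.09 CPM in Runx2+/- MS-275 libraries, 0.130, 0.164 and 0 CPM in WT MS-275 libraries, 17.5, 7.79 and 1.32 CPM in Runx2+/- vehicle libraries and 12.3, 10.7 and 6.13 CPM in WT vehicle libraries, and it fell by 6.49 ± 1.83 (SE) on the log2 scale in WT (adjusted p 0.044 by edgeR).

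The Runx2+/- comparison turned on 1 library. With all libraries, 0 of the 36 tested members were called in Runx2+/- MS-275 against Runx2+/- vehicle by edgeR, where 0.00% of all genes were called, and 1 member had an unadjusted p under 0.05. DESeq2 called 0 members and 3.17% of all genes there, and edgeR's median log2 fold change over the members was -1.66. Groups did not overlap, lower in MS-275, for 7 of 48 members, against 8.56% of all genes tested, and 6.33% were higher without overlap. Without Runx2+/- MS-275 replicate 3, 30 of 40 tested members were lower, where 14.2% of all genes were lower, and the median was -7.85. With all 3 libraries that stood apart left out, 34 of 35 were lower (28.9% of all genes), with a median of -8.12.

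**Figure D3:**
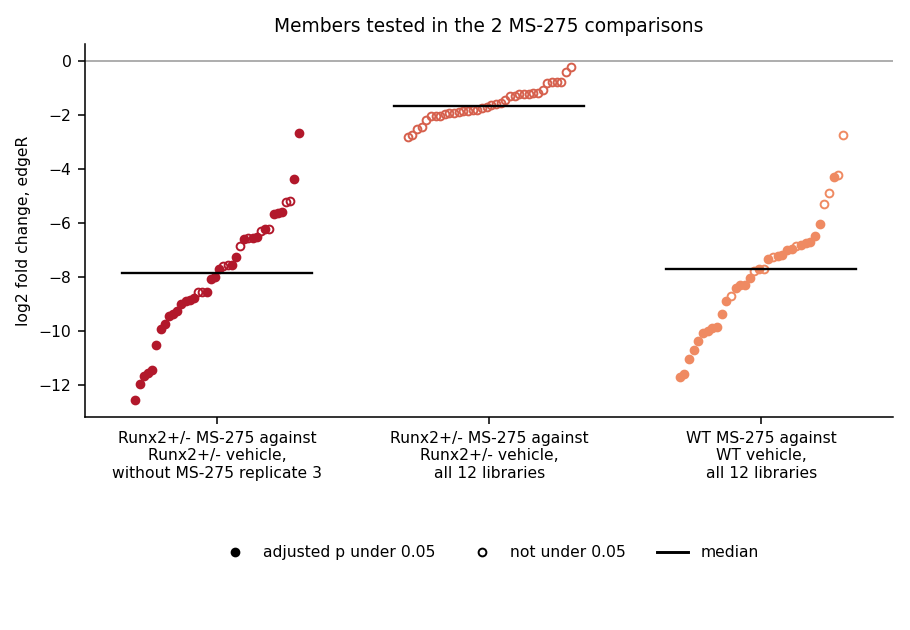
edgeR log2 fold change (y axis) of each tested member, ranked within each comparison; filled points have an adjusted p under 0.05 and the bar is the median. The medians are -7.85 for Runx2+/- MS-275 against Runx2+/- vehicle without MS-275 replicate 3, -1.66 for the same comparison with all libraries, and -7.70 for WT MS-275 against WT vehicle.

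Without that library, all 5 single genes and both transglutaminases were called lower in the heterozygotes. It was singled out by its own values, so the counts and p-values without it are a description. Members at or near 0 in the 2 remaining MS-275 libraries could pass the filter only through their level elsewhere. Hrnr fell by 11.46 ± 1.07 (SE) on the log2 scale with an adjusted p of 0.000971, Lor fell by 7.55 ± 0.79 with an adjusted p of 0.00128, and Tgm1 fell by 4.38 ± 0.52 with an adjusted p of 0.0018, all by edgeR. Rptn, which had no count in those 2 MS-275 libraries, was at least 171-fold below the mean of Runx2+/- vehicle (adjusted p 0.0358 by edgeR). That mean is over 78.3, 53.7 and 0.866 CPM, so the bound does not hold against vehicle replicate 3. All 13 Lce1 genes were called, with 3 counts in all in the 2 remaining MS-275 libraries against 6240 in Runx2+/- vehicle. The 10 tested members not called were Lce3a, Lce3b, Lce3e, Sprr2d, Sprr2h, Sprr2i, Sprr2k, Sprr4, Crnn and Tchhl1.

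Under vehicle, 0 of 36 tested members were called in Runx2+/- against WT by edgeR, as for all genes (0.00%), 0 had an unadjusted p under 0.05, and DESeq2 called 0. Their log2 fold changes ran between -0.90 for Sprr2k and 0.33 for Sprr4, with a median of -0.23, and no member was without overlap between the groups, against 2.69% of all genes higher and 2.09% lower. Under MS-275, edgeR called 0 members in Runx2+/- against WT and 0 genes of any kind, 28 members had an unadjusted p under 0.05, and DESeq2 called 12 members higher, where it called 2.23% of all genes in either direction and 1.85% higher. There 1 of 48 members was higher without overlap, against 9.13% of all genes higher and 7.52% lower. The median there was 6.16 with all libraries and 0.00 without Runx2+/- MS-275 replicate 3. Without that replicate, 0 of 40 tested members had an unadjusted p under 0.05 by edgeR, and DESeq2 was not run without it. The share of all genes at that unadjusted level was not computed. The interaction, the MS-275 difference in Runx2+/- minus that in WT, had 0 members called by edgeR, 22 with an unadjusted p under 0.05 and 3 called higher by DESeq2 (0.130% of all genes, all higher), and its median was 6.33 with all libraries and 0.10 without that replicate. Without that replicate, 0 members had an unadjusted p under 0.05 by edgeR in the interaction.

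Levels between genes were compared per kilobase of exon, as the mean CPM per kb ± SD over 3 libraries. Sprr1a stood at 50.1 ± 46.1 in Runx2+/- vehicle and 85.2 ± 105 in WT vehicle, Lor at 46.4 ± 4.54 in Runx2+/- vehicle and 56.2 ± 31.7 in WT vehicle, and Hrnr at 45.2 ± 13.97 in Runx2+/- vehicle and 53.7 ± 36.1 in WT vehicle. Behind them came Lce1m at 30.7 ± 9.39 in Runx2+/- vehicle and 36.8 ± 22.1 in WT vehicle, and Crct1 at 27.8 ± 16.8 in Runx2+/- vehicle and 36.0 ± 24.8 in WT vehicle. These 5 do not differ from their neighbours in that order beyond their spread. Tgm1 stood at 4.03 ± 1.43 in Runx2+/- vehicle and 5.24 ± 2.24 in WT vehicle, and Flg2 at 1.14 ± 0.640 in Runx2+/- vehicle and 0.980 ± 0.505 in WT vehicle. Hrnr and Flg2 repeat within themselves, with 4559 and 9055 distinct stretches of 50 bases in 11187 and 20803 exon bases. Their levels per kb, and so their places in the order, are uncertain.

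The members also varied among the vehicle libraries. For 11 members both replicates numbered 3, Runx2+/- and WT, were the lowest of the 6 vehicle libraries, and for another 11 both were the highest, where 28.1% of all genes tested were lowest and 28.1% were highest. Among the 36 tested members these were 11 and 7, so the shares are close to the background. The members lowest there were Rptn, Crnn, Tchh, Tchhl1, Tgm3, Sprr3, Sprr4, Lce3a, Lce3b, Lce3c and Lce3e, and the members highest there were Sprr1a, Sprr1b, Sprr2a3, Sprr2d, Sprr2h, Sprr2i, Sprr2k, Lce1b, Lce6a, Crct1 and Cysrt1.

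Rptn in replicate 3 was 0.0131 times the mean of replicates 1 and 2 in Runx2+/- vehicle and 0.0194 times in WT vehicle. Sprr2h, a member that did not pass the filter, was at 0.185, 0.301 and 7.74 CPM in Runx2+/- vehicle libraries and 0.439, 0.115 and 8.55 CPM in WT vehicle libraries, with a ratio of 31.8 in Runx2+/- vehicle and 30.9 in WT vehicle. It had no count in Runx2+/- MS-275 replicates 1 and 2, 0.261 CPM in replicate 3 and 1 count in all in WT MS-275. The 13 Lce1 genes had ratios of 0.861 to 1.78 in Runx2+/- vehicle and 0.909 to 2.00 in WT vehicle.

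**Figure D4:**
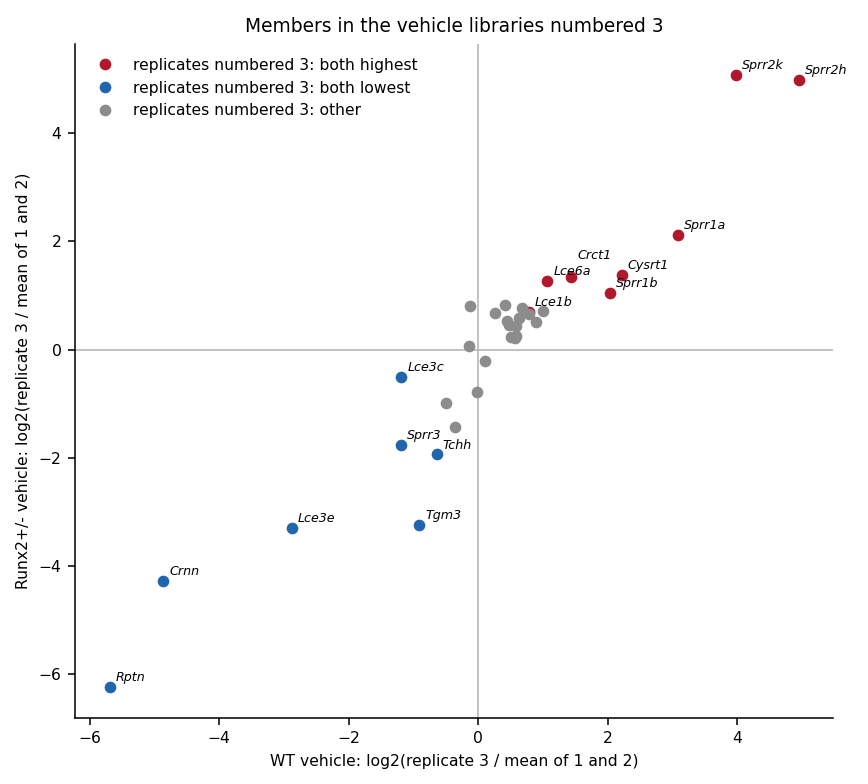
Replicate 3 over the mean of replicates 1 and 2, as log2, in Runx2+/- vehicle (y axis) and WT vehicle (x axis), for the 34 members with at least 3 counts in replicate 3 and in replicates 1 and 2 together, in both groups. Rptn and Crnn lie at the low end of both axes, and Sprr2h and Sprr2k lie at the high end of both.

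Other lists were also at an end of the order in the same 2 vehicle libraries. Of the 18 pathway and marker lists, 5 had their lowest sums of the 6 vehicle libraries in both (lens, periderm and oral, neuron, hair follicle and melanocyte) and 6 had their highest (dermal fibroblast, chondrocyte, erythroid, myeloid, S100 and other genes of the complex, and regulators). The 8 lens markers summed to 787, 952 and 17.1 CPM in Runx2+/- vehicle libraries and 1099.6, 1018 and 13.2 CPM in WT vehicle libraries. The 9 periderm, oral or stress keratinocyte markers summed to 1085, 464 and 225 CPM in Runx2+/- vehicle libraries and 583, 740.3 and 376 CPM in WT vehicle libraries, lowest in replicate 3 in both. Neuron markers were also lowest there, at 357 CPM in Runx2+/- vehicle and 161 CPM in WT vehicle. Among the lists that were highest in replicates 3, dermal fibroblast markers were at 1481 CPM in Runx2+/- vehicle and 1829.8 CPM in WT vehicle. Chondrocyte markers were at 934 CPM in Runx2+/- vehicle and 776 CPM in WT vehicle, and erythroid markers were at 7859.9 CPM in Runx2+/- vehicle and 5573 CPM in WT vehicle. The part of these tissues in the members' order was not tested.

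Keratinocyte markers fell with the members under MS-275. Krt5 and Krt14, the keratins of basal keratinocytes, summed to 1.49, 0.878 and 460.0 CPM in Runx2+/- MS-275 libraries, 3.12, 4.83 and 2.42 CPM in WT MS-275 libraries, 557, 262 and 225 CPM in Runx2+/- vehicle libraries and 538, 310.5 and 695 CPM in WT vehicle libraries. Both were called lower in WT, with adjusted p-values of 0.0439 and 0.0446 by edgeR. The members' summed CPM was 2.94, 4.91 and 2.10 times that sum in Runx2+/- MS-275 libraries, 1.98, 1.12 and 2.82 times in WT MS-275 libraries, 1.57, 3.31 and 5.11 times in Runx2+/- vehicle libraries and 2.89, 1.54 and 1.98 times in WT vehicle libraries.

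This ratio overlapped among all 4 groups, and it was chosen after the values had been seen and rests on 11 to 59 counts of the 2 keratins in each of the 5 other MS-275 libraries. Against Krt1 plus Krt10, the keratins of spinous keratinocytes, the members stood at 1.15, 1.04 and 1.09 in Runx2+/- MS-275, 0.941, 0.892 and 0.868 in WT MS-275, 0.548, 0.669 and 1.83 in Runx2+/- vehicle and 0.556, 0.694 and 0.888 in WT vehicle. Across all genes tested in WT, 9.33% were called lower and 9.67% higher. The basal keratinocyte list as a whole, 12 genes of which none was at 0, had 10 genes called lower in WT and 0 higher, with a median log2 fold change of -3.07. Its sum was at 312, 369 and 1294 CPM in Runx2+/- MS-275 libraries, 325, 273 and 253 CPM in WT MS-275 libraries, 1627, 1097 and 822 CPM in Runx2+/- vehicle libraries and 1582, 1129.9 and 1706 CPM in WT vehicle libraries. The other 2, the integrin gene Itga6 and the plakin gene Dst, which other tissues also express, did not pass the test in WT (adjusted p 0.201 and 0.0638 by edgeR). In WT MS-275 libraries Itga6 was at 92.1, 89.3 and 59.4 CPM and Dst at 165, 131 and 149 CPM, and in WT vehicle libraries Itga6 was at 95.8, 89.8 and 115 CPM and Dst at 312, 343 and 180.5 CPM. The members' ratio to the sum of the whole basal list was lower in the 5 other MS-275 libraries than in every vehicle library. In those 5 the members summed to 4.31 to 6.81 CPM and the list to 253 to 369 CPM. In vehicle libraries the members summed to 478 to 1554 CPM and the list to 822 to 1706 CPM. In Runx2+/- MS-275 replicate 3 this ratio lay inside the vehicle range. The part of Itga6 and Dst in the ratio was not tested.

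**Figure D5:**
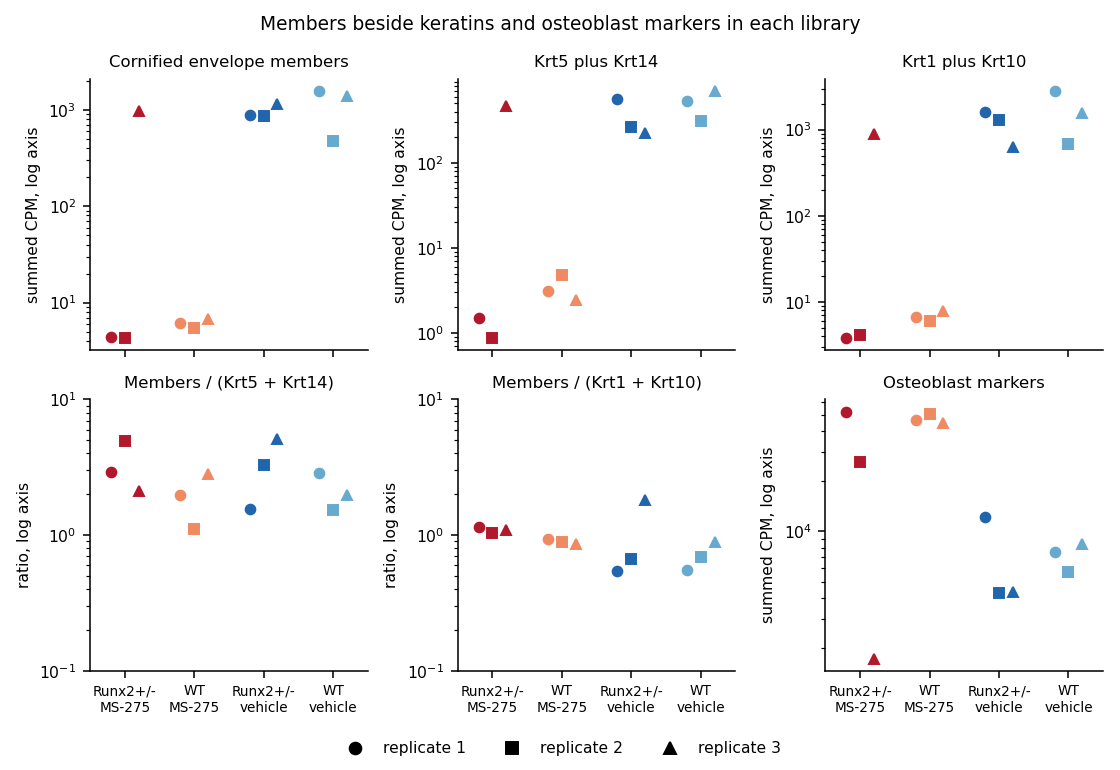
Summed CPM (log axis) of the members, of Krt5 plus Krt14, of Krt1 plus Krt10 and of 10 osteoblast markers, and the ratio of the members to each keratin pair (log axis), in each library by group. The ratio to Krt5 plus Krt14 runs between 1.12 and 5.11 over the 12 libraries, while the members' sum runs between 4.31 and 1554 CPM.

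Markers of the labelled tissue went the other way. The 10 osteoblast markers summed to 52063, 25989 and 1734 CPM in Runx2+/- MS-275 libraries, 46342, 50683 and 44778 CPM in WT MS-275 libraries, 12189, 4263 and 4310.0 CPM in Runx2+/- vehicle libraries and 7553, 5750.0 and 8378 CPM in WT vehicle libraries. The 5 other MS-275 libraries lay above all 6 vehicle libraries and Runx2+/- MS-275 replicate 3 lay below them all. Spinous markers (8 genes) were at 13.6, 12.8 and 1307 CPM in Runx2+/- MS-275 libraries, 17.6, 15.6 and 25.2 CPM in WT MS-275 libraries, 1936, 1608 and 980.2 CPM in Runx2+/- vehicle libraries and 3356, 872 and 2061 CPM in WT vehicle libraries, and lens markers were at 7.43, 6.94 and 737 CPM in Runx2+/- MS-275 and 8.07, 11.2 and 9.06 CPM in WT MS-275. None of the genes in these 3 lists was at 0 in WT MS-275. Dermal fibroblast and skin adipocyte markers, like the osteoblast markers, were higher in the 5 other MS-275 libraries than in all 6 vehicle libraries. Their sums were 8974, 6045 and 1009 CPM in Runx2+/- MS-275 and 5629, 8484 and 12368 CPM in WT MS-275. They were at 974, 676 and 1481 CPM in Runx2+/- vehicle and 806, 851 and 1829.8 CPM in WT vehicle. The part of cells outside the skin in these sums was not tested. Whether the libraries differ in how much skin they hold was not tested, and it cannot be told apart from the treatment.

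Other genes of the cornification pathway, taken from lists chosen with earlier results of these data known, mostly moved with the members in WT. Of 18 other envelope precursors and linkers, all tested, 14 were lower and 0 higher, with a median log2 fold change of -5.42. Beside this list and the pathway lists below, 9.33% of all genes tested were lower in WT and 9.67% higher. Desmoplakin (Dsp), the desmosomal anchor of keratins, was at 2.80, 1.56 and 0.604 CPM in WT MS-275 libraries and 436, 215 and 366 CPM in WT vehicle libraries, a log2 fold change of -7.65 ± 1.65 (SE, adjusted p 0.0434 by edgeR), or -8.28 without WT MS-275 replicate 1. Plakoglobin (Jup) and Hopx, a homeodomain-only factor, fell too, with log2 fold changes of -1.68 ± 0.36 and -1.52 ± 0.29 (SE). Jup in WT MS-275 was at 36.4, 28.2 and 20.4 CPM, against 101, 75.1 and 96.2 CPM in WT vehicle.

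Neighbours of the members in the epidermal differentiation complex did not all follow them. Of 19 S100 and other genes of the region, 16 were tested, 3 were lower and 2 higher, and their median log2 fold change was 0.07. Across all genes tested 9.33% were lower and 9.67% higher, so these few calls are not read as a result about the list. S100a14, an epithelial S100 protein, was at 0.391, 0.573 and 0.431 CPM in WT MS-275 libraries and 52.7, 26.1 and 104 CPM in WT vehicle libraries, and it fell by 7.02 ± 1.70 (SE) on the log2 scale, with a log2 fold change of -6.39 without WT vehicle replicate 3. Them5, an acyl-CoA thioesterase, had no count in WT MS-275 and 36.3, 11.2 and 31.6 CPM in WT vehicle, and it was called lower (adjusted p 0.0436 by edgeR). S100a4, known from motile mesenchymal cells, rose to 62.7, 103 and 131 CPM in WT MS-275 libraries, against 6.66, 6.69 and 17.5 CPM in WT vehicle libraries, a log2 fold change of 3.27 ± 0.81 (SE), and of 3.89 without WT vehicle replicate 3. S100a1, at 35.5, 37.6 and 56.1 CPM in WT MS-275 libraries and 10.6, 14.4 and 19.2 CPM in WT vehicle libraries, rose by 1.55 ± 0.45 (SE) on the log2 scale, with adjusted p-values of 0.0454 for S100a1 and 0.0434 for S100a4 by edgeR.

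Of 13 proteases and inhibitors of cornification, 12 were tested, 9 were lower and 0 higher, with a median log2 fold change of -6.64. Asprv1, the protease that processes profilaggrin, was at 0.846, 0.655 and 1.64 CPM in WT MS-275 libraries and 249.7, 78.5 and 318 CPM in WT vehicle libraries, a log2 fold change of -7.69 ± 1.90 (SE). The membrane proteases matriptase (St14) and prostasin (Prss8) fell, with log2 fold changes of -4.24 ± 0.80 and -2.94 ± 0.62 (SE). Of 12 barrier lipid enzymes 7 were lower, with a median of -2.53. The lipoxygenases Alox12b and Aloxe3, which oxidise the barrier lipids, had log2 fold changes of -8.33 ± 2.10 and -5.11 ± 1.26, and the elongase Elovl4 had one of -2.18 ± 0.49 (SE).

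Of 18 regulators of terminal differentiation 10 were lower and 0 higher in WT, with a median log2 fold change of -2.30. Zfp750, a zinc finger factor of late keratinocytes, was at 0.456, 0.164 and 0.259 CPM in WT MS-275 libraries and 20.7, 10.2 and 18.7 CPM in WT vehicle libraries. Cebpa fell by 1.73 ± 0.38 (SE) on the log2 scale. Among the genes of these 5 lists that are named here, each adjusted p in WT was 0.0434 to 0.0454 by edgeR.

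Near-identical copies limit the smaller members. Cut into stretches of 50 bases, the exons of 20 members shared none with another gene, 6 shared under 10% and 22 shared 10% or more. The Lce1 genes shared a median of 19.9% and the Lce3 genes a median of 39.7%, so how reads were split within these families is uncertain. Sprr2a1 and Sprr2a2 shared 96.3% and 96.5% and overlap in the annotation, and their counts of 0 to 2 are uncertain for the same reason. Hrnr, Lor, Rptn, Crnn, Sprr1a, Sprr2h and Lce1m shared none.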

How the data were processed

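Total RNA libraries were made with a TruSeq stranded kit, per the labels' protocols. The authors deposited 1 table per library of raw read counts per Ensembl gene, made with Trimmomatic, Bowtie2, SAMtools and HTSeq, per the submitters' processing notes. Those notes name the human build GRCh38.p7, although the identifiers are mouse; the mouse annotation, the strand setting and tool versions are not given in the sources used here. The 5 summary entries of each table were kept out of totals. Reads in no feature were 10.5% to 16.8% of uniquely aligned reads in the vehicle libraries. Their share was 22.2% in Runx2+/- MS-275 replicate 3, the highest of all libraries, and 5.21% to 8.65% in the other MS-275 libraries. TMM factors split in the same way, at 1.18 to 1.32 in vehicle, 1.33 in that replicate and 0.598 to 0.820 in the other MS-275 libraries. The part of these differences in the results was not tested.

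Gene names came from GENCODE M21, which matched 37693 identifiers and left 1486. All 12 libraries entered 1 edgeR 4.0.16 quasi-likelihood fit (TMM scaling, filterByExpr, 17967 genes, 8 residual degrees of freedom, R 4.3.3), with Benjamini-Hochberg adjustment over all genes and a threshold of 0.05. With 3 libraries a side an exact permutation test cannot go below p = 0.1, so none was used. Alternatives were other scalings, no filter, DESeq2 1.42.0, the replicate number as a block, only the groups compared, and leaving out each library. The scripts were tested on simulated counts. Intervals are exact and, like the floor of 3 counts, cover counting error only. Between Runx2+/- and WT vehicle libraries of equal number, deviations from the group mean correlated at 0.22, 0.75 and 0.81, and between other groups at 0.28 at most. These 3 values are not independent, and the libraries numbered 3 stood apart in both vehicle groups, so they do not show that the replicates are paired. The labels do not say why. Summed CPM, motif searches in RefSeq promoters and shared 50-base stretches were computed in Python 3.11.15.

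Members given library by library were the 2 with the highest mean CPM in each family and the tested members not called in WT. Pathway genes named were the 3 with the smallest p of each list in WT and any called higher there, except genes that are not reported here. The members and lists were chosen with earlier results of these data known. Flg and Lce1d were not analysed here.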

Additional observations from a re-analysis of the deposited data

How the results depend on the processing

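No called result changed direction under the alternatives run. In WT, the count of lower members ran between 0 and 33 and their median log2 fold change between -7.83 and -7.38 when 1 library was left out. The count was 0 with no filter (47 members tested) and 0 with the replicate block. With the block in a fit of the 2 groups it was 29 of 29, where 29.7% of all genes were called in either direction. DESeq2 called 30 of 47 lower, with a median of -6.82, where it called 23.6% of all genes in either direction. Scaled by library size alone, edgeR called 31 of 36 lower in WT, with a median of -8.15. There it called 7009 of all genes lower and 526 higher, and the median of all genes was -0.95, against -0.13 with TMM. Smaller log2 fold changes thus depend on the scaling. In Runx2+/- the count ran between 0 and 30 and the median between -7.85 and -1.16 with 1 library left out; the median was -4.33 with the replicate block in a fit of the 2 groups, and the count was 34 and the median -8.12 with 3 libraries left out. Under vehicle the genotype median ran between -0.54 and -0.03, with 0 calls each time, and the replicate block changed no call there. Under MS-275 the genotype median ran between 0 and 6.65 with 1 library left out and was 0.00 with 3 libraries left out. With only the groups compared, just 2 members were tested. The median of those 2 was 2.40, or 1.12 with the replicate block in that fit. DESeq2 called 12 (2.23% of all genes). The interaction median ran between 0.10 and 6.65 with 1 library left out, and was -0.17 with 3 left out; DESeq2 called 3 (0.130% of all genes). With 1 library left out, the genes called in WT ran between 0 and 17 for envelope precursors, 0 and 8 for S100 and other genes of the complex, 0 and 11 for proteases, 0 and 10 for barrier lipids and 0 and 12 for regulators; each of these 5 lists had 0 with no filter and 0 with the replicate block. With 1 library left out, the share of all genes called in WT ran between 0.00% and 46.6%. The S100 list had 9 with the block in the 2-group fit (29.7% of all genes) and 13 with 3 libraries left out (60.3%). It had 11 without both vehicle replicates 3 (33.0%) and 9 by DESeq2 (23.6%), all in either direction. The 2-group block, the pair of vehicle replicates and the set of 3 libraries left out together were chosen after the data had been seen. Runx2+/- MS-275 replicate 3 was likewise singled out by its values. The causes were not tested. Depth limits the members with few counts: the 11 Sprr2 genes together held 6 counts in WT MS-275 libraries and 556 in WT vehicle libraries.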
